A study of Mus musculus with 12 samples.

Results

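The collagen chain genes of the mouse are described here in the lungs of wild type (WT) mice and of mice labelled Has2+/-, after saline or after sensitization and intranasal challenge with ovalbumin. The members are the genes whose symbol reads Col, a number, the letter a and a number, with nothing after it, and 44 of the 49585 genes in the table met that rule. The rule uses names only and no measured value. RNA of whole lungs from C57BL/6 mice was sequenced in 12 libraries, 3 in each of 4 groups: WT with saline, WT with ovalbumin, Has2+/- with saline and Has2+/- with ovalbumin. Titles of samples with ovalbumin also state a time, 24, and name no unit for it. Has2 encodes an enzyme that makes hyaluronan, a sugar polymer of the extracellular matrix, and ovalbumin is a protein allergen used to inflame the airways of sensitized mice. In the order of the table, libraries 1, 2 and 3 form the WT ovalbumin group and 4, 5 and 6 the WT saline group. Libraries 7, 8 and 9 form the Has2+/- ovalbumin group and 10, 11 and 12 the Has2+/- saline group, and values are given in that order within a group.

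A collagen molecule is a triple helix of chains, which come from the same gene or from different genes. A collagen type with different chains needs the products of several genes together. Type I and type III collagen form the banded fibrils that give the lung its tensile strength, with type V collagen inside the fibrils as a regulator of their width. Type IV collagen is the sheet-like network of basement membranes, in which the chains of Col4a1 and Col4a2 join in one trimer and those of Col4a3, Col4a4 and Col4a5 in another that is abundant under alveolar epithelium. Type VI collagen forms beaded filaments between cells and fibrils. The FACIT collagens (fibril-associated collagens with interrupted triple helices) decorate fibrils, and others, such as the chain of Col17a1, span the membrane of epithelial cells.

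Values are the authors' normalized units, which were forced to the same distribution with a sum of 6852201 in each library, so the depth of the libraries is unknown and no counting interval can be given. Changes are log2 differences of value + 1 with their standard error (SE), tested with limma on 19017 genes, with p-values adjusted by Benjamini and Hochberg over all of them, and a gene is called at an adjusted p under 0.05. Nothing in the labels ties each library to a mouse of its own, so p-values cover only the spread among these libraries, which may be technical. Has2 itself stood at 6.67, 4.42 and 6.08 units in WT saline, 3.50, 6.42 and 10.3 in WT ovalbumin, 7.67, 8.17 and 7.42 in the libraries labelled Has2+/- with saline and 6.67, 5.75 and 11.3 in those with ovalbumin. It was thus not lower in the libraries labelled Has2+/-, and genotype below means that label only. The summed level of 10 genes of squamous and basal epithelium was 24047 to 36791 units in libraries 3, 4, 6, 10 and 11, was 2051 in library 5 and was 17.0 to 399 in the other 6, so that 4 of the 6 saline libraries and 1 of the 6 ovalbumin libraries were high. Counts of called members, and the changes of some members, are given with and without these 5 libraries. The ratios of partner chains were not tested without them, and the genes of other lists are given from all 12 libraries only. How far the counts of those lists hold under other settings is not shown here.

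Several collagen genes lie in pairs that start back to back on opposite strands. The genome positions are those of the mm10 build (GRCm38). Col4a1 (chr8:11198423-11312826, minus strand) and Col4a2 (chr8:11312805-11449287, plus strand) overlap by 22 bases at their starts. Col4a4 (chr1:82448423-82586849, minus strand) and Col4a3 (chr1:82586921-82722059, plus strand) are separated by 71 bases, and Col4a6 (chrX:141165403-141474076, minus strand) and Col4a5 (chrX:141475385-141689234, plus strand) by 1308 bases. Col3a1 (chr1:45311538-45349706, plus strand) and Col5a2 (chr1:45374321-45503282, minus strand) face each other tail to tail, 24614 bases apart. Col6a2 and Col6a1 lie in the same direction on chromosome 10, as do Col6a6, Col6a5 and Col6a4 on chromosome 9.

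The sequence between the starts of Col4a4 and Col4a3, chr1:82586850-82586920, is shown on the minus strand, because both chains of this pair belong to the same trimer and the values of both genes are compared below. It is followed by the 250 bases before the start of Col3a1 (chr1:45311288-45311537, plus strand), Col5a1 (chr2:27886175-27886424, plus strand), Col6a5 (chr9:105960644-105960893, minus strand) and Col4a6 (chrX:141474077-141474326, minus strand). These 4 genes were called after ovalbumin, and no annotated exon falls in these windows. The sequences are from RefSeq (GRCm38.p6), and capitals mark a TATA box or GC box string on either strand.
Col4a4 to Col4a3: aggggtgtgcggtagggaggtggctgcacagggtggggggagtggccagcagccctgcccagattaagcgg
Col3a1: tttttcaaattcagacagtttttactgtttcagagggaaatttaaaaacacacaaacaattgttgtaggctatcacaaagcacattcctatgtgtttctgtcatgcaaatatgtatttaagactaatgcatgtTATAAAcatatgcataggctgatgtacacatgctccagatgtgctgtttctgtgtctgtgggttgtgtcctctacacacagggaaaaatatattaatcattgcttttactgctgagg
Col5a1: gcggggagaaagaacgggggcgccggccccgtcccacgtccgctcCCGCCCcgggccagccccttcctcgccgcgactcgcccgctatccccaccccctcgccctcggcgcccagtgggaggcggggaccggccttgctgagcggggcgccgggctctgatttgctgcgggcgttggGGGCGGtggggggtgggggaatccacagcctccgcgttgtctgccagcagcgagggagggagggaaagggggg
Col6a5: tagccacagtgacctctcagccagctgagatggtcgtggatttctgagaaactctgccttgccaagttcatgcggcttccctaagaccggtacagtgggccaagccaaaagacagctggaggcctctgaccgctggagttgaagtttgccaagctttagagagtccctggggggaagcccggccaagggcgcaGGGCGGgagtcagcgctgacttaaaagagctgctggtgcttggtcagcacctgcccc
Col4a6: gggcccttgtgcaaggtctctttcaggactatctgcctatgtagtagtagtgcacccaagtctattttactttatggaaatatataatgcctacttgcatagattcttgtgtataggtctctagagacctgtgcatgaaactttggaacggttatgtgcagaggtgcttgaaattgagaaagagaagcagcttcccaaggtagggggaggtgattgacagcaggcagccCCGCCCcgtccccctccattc

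Both strands were searched for 3 strings. The first was CCAAT, and the TATA box string was TATAAA. The GC box string was GGGCGG, and no string is contained in another. The window of Col3a1 is rich in A and T and holds TATAAA 117 bases before the start, and that of Col5a1 is rich in G and C and holds GGGCGG at 73 and 205 bases. The windows of Col6a5 and Col4a6 hold 1 GGGCGG each, at 57 and 21 bases. The 71 bases between Col4a4 and Col4a3 hold 0 matches to these motifs. The RefSeq table matched 35 of the 44 members, of which 21 held GGGCGG, 13 CCAAT and 5 TATAAA in the 250 bases before a start. Some members have more than 1 window, and by window 22 of 38 held GGGCGG, 13 CCAAT and 5 TATAAA. Of all 32851 promoters of the same length, 32.7% held GGGCGG, 33.8% CCAAT and 12.4% TATAAA. A match is a string of letters, not a shown binding site.

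The 44 members spanned the whole range of expression. Averaged over the 12 libraries, 13 were at 1000 units or more (both type I chains, Col3a1, Col5a1, Col5a2, 5 of the type IV chains and Col6a1 to Col6a3), 14 at 100 to under 1000, 6 at 10 to under 100, 8 at 1 to under 10 and 3 under 1. Together they made up 0.911% to 1.09% of a library's sum in the WT saline libraries and 1.43% to 1.49% in the WT ovalbumin libraries. In Has2+/- the share was 0.942% to 1.05% with saline and 1.14% to 1.28% with ovalbumin. Every ovalbumin library thus held a larger share of collagen RNA than every saline library, and the Has2+/- ovalbumin libraries lay between.

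Levels of different genes can be compared only per length. Divided by transcript length in kb, the highest saline medians over 6 libraries were 1565 units per kb for Col4a2, 1558 for Col4a1, 1444 for Col3a1, 1148 for Col1a1 and 1027 for Col1a2. The ranges of the first 3 overlapped, and so did those of Col1a1 (981 to 1233) and Col1a2 (962 to 1140). Col6a1 and Col6a2 followed at 796 and 752 units per kb, also with overlapping ranges, and a step led down to Col4a3 at 349. With ovalbumin the order changed at the top: Col3a1 was first at 2571 units per kb (2150 to 3354), before Col4a1 at 2231, Col1a1 at 2017 and Col4a2 at 1968. Col5a2 went from 184 to 311 units per kb and from the 13th to the 9th place, while Col4a3 went from 349 to 293 and from the 8th to the 10th. With ovalbumin the ranges of each of these 4 genes and the next overlapped, so their places are not separated beyond the spread. With saline the range of Col3a1 (1266 to 1714) lay above that of Col1a1.

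**Figure D1:**
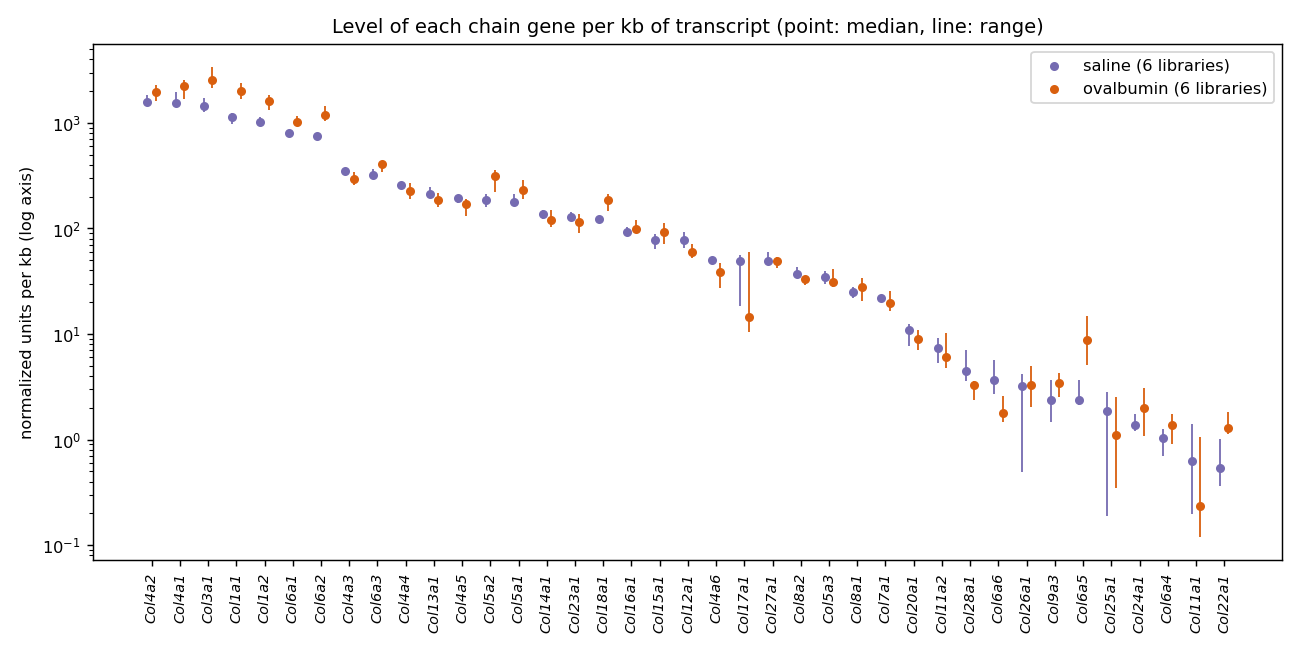
Level of the collagen chain genes in units per kb of transcript on a log axis, in the order of the saline medians. Points are medians and lines are ranges over 6 saline and 6 ovalbumin libraries. Genes at 0 in any library (Col19a1, Col2a1, Col9a2, Col10a1 and Col9a1) are not drawn. Col4a2, Col4a1 and Col3a1 are highest with saline, and Col3a1 is highest with ovalbumin.

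Chains known best from cartilage were low, some of them at or near 0. Col10a1 was 0 in 11 libraries and 0.500 in the other, Col9a1 reached 1.00, Col9a2 2.50 and Col2a1 7.67 units at most, and Col10a1 and Col9a1 fell under the filter on low values, which left 42 members tested. Col9a3 was at 4.50 to 13 units, and Col11a2, a fibrillar chain gene, at 25.8 to 54.8. Genes at the level of the first 4 sit on the order of ties in the normalization, and no direction was drawn from them. Acan, the main proteoglycan of cartilage, averaged at most 1.39 units in any group, and Matn3 and Ucma at most 0.639 and 0.472, while Matn4, a matrilin also made outside cartilage, averaged 458 to 511.

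With ovalbumin, 5 of 11 fibrillar and 4 of 6 beaded filament (type VI) members rose in WT, as did Col4a1 and Col4a2 of the basement membrane network, Col18a1 and Col22a1. The members that fell in WT were Col4a6, Col6a6 and Col12a1, each from a family in which other members rose. In Has2+/-, 4 fibrillar members, 3 of type VI and Col18a1 rose. In WT, 13 of the 42 tested members were higher and 3 lower after ovalbumin, where 8.65% of all genes tested were called higher and 8.05% lower. The median change of the members was 0.23 against -0.03 for all genes. In Has2+/-, 8 members were higher and 0 lower, where 1.85% and 0.952% of all genes were, and the median change was -0.04 against 0.01. Before adjustment limma gave 5 members lower there at p under 0.05, where 8.88% of all genes were. The authors' deposited table gives 0 members lower there at an FDR under 0.05, where 194 of all 49585 genes were. These 8 are all among the 13 of WT. The WT ovalbumin libraries did not overlap the saline libraries in 16 members that were higher and 9 that were lower, against 16.2% and 17.6% of all genes, and in Has2+/- in 10 and 5, against 13.2% and 11%. The 8 calls in Has2+/- varied when 1 library was left out. Col1a1, Col6a2 and Col6a5 passed the threshold whichever single library was left out, and with the log2 squamous sum as a covariate they were the 3 that passed. Without the trend and robust options of limma 1 of the 8 passed, Col6a5 (adjusted p 0.0355), and Col1a1 and Col6a2 were at an adjusted p of 0.0668 each. Col1a2 and Col18a1 were lost without library 7, 10 or 11, Col6a1 without library 8, 10 or 11, and Col3a1 and Col5a2 without library 7, 8, 10 or 11. Over 23 settings their changes ranged from 0.30 to 0.42 for Col1a2, 0.29 to 0.41 for Col18a1, 0.29 to 0.35 for Col6a1, 0.57 to 0.80 for Col3a1 and 0.43 to 0.64 for Col5a2. In WT, 5 members were lower without library 2, with Col13a1 (-0.35) and Col4a5 (-0.35) beside the 3. Without the 5 libraries high in squamous genes, which leaves 1 saline library per genotype, 0 members were called in either genotype, and 38 genes in all were called higher and 61 lower in WT; the WT changes of the 16 members kept their signs.

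In RNA of a whole lung, fewer cells of a type and less RNA per cell cannot be told apart, which holds for each result below.

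**Figure D2:**
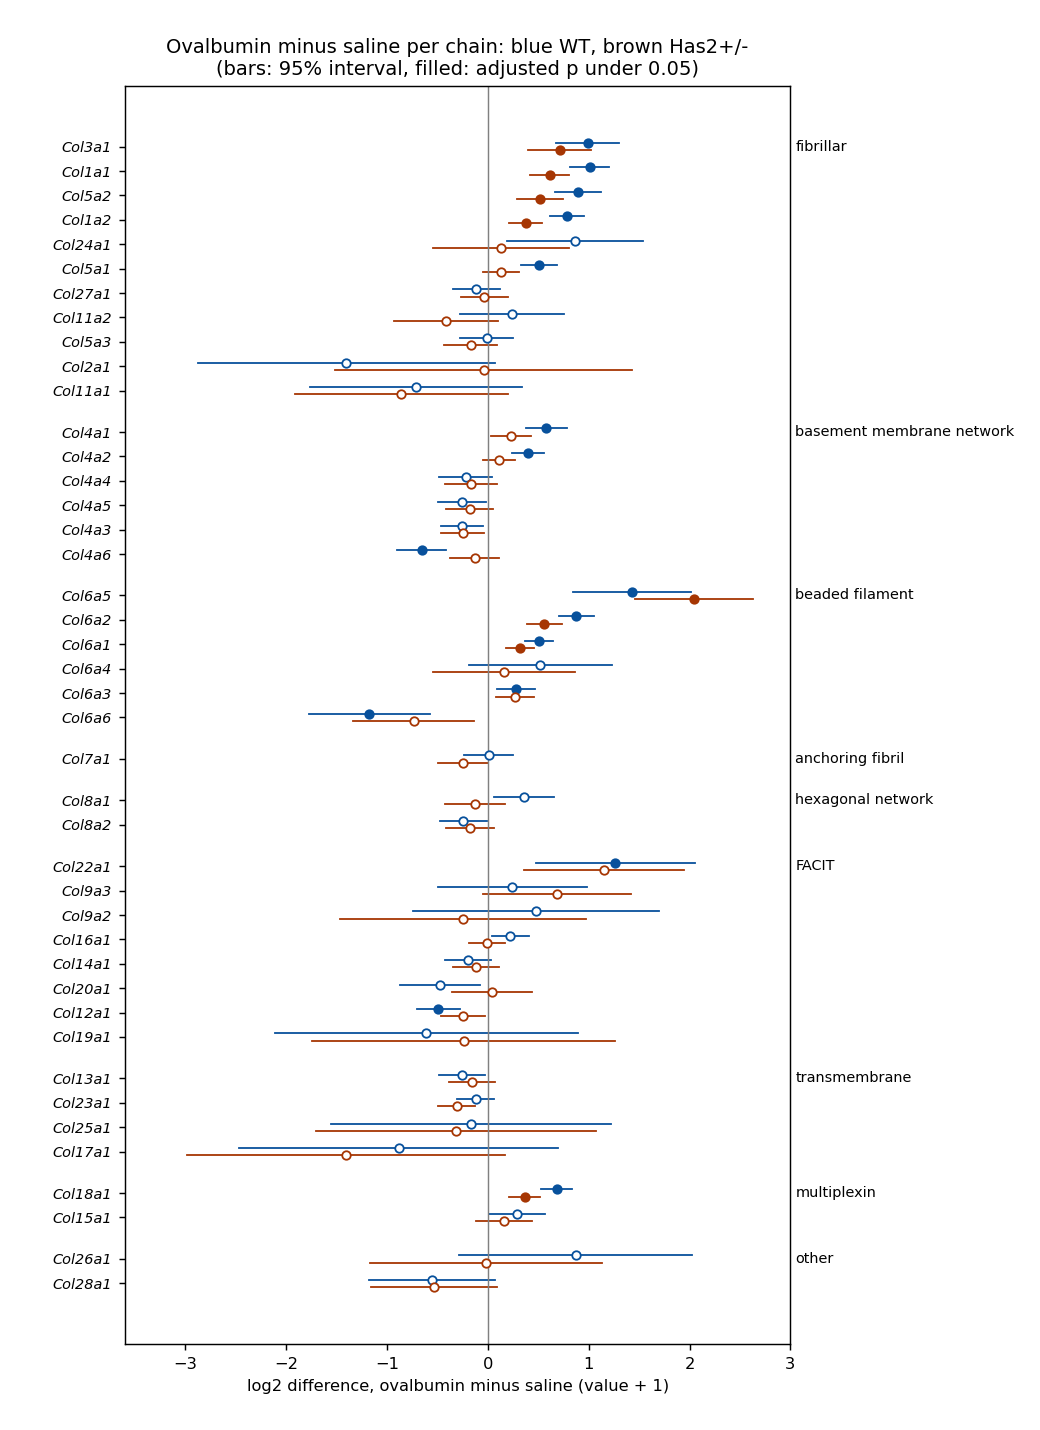
Ovalbumin minus saline log2 difference of each of the 42 tested members, in WT (blue) and Has2+/- (brown), by structural family; bars are 95% intervals and filled points have an adjusted p under 0.05. The filled points on the right belong mostly to fibrillar and beaded filament chains, with 13 in WT and 8 in Has2+/-, and the 3 filled points on the left are Col4a6, Col6a6 and Col12a1 in WT.

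Of the 11 fibrillar members, 5 rose in WT and 4 in Has2+/-, with a family median of 0.51 and 0.13. Col1a1, one of the chains of type I collagen, stood at 6426, 7312 and 5818 units in WT saline and at 13138, 14230.3 and 11964 in WT ovalbumin. In Has2+/- it was at 6636, 7196 and 6976 with saline and at 11964, 10042 and 9894 with ovalbumin. Every ovalbumin library was above every saline library of both genotypes. The change was 1.01 (SE 0.09, adjusted p 2.81e-05) in WT and 0.61 (SE 0.09, adjusted p 0.00505) in Has2+/-. Its partner chain gene Col1a2 was at 5165, 5762 and 5144 in WT saline, 9003, 9894 and 8819 in WT ovalbumin, 5226, 6096 and 6096 in Has2+/- saline and 8329, 7196 and 7046 in Has2+/- ovalbumin. The groups again did not overlap, and the changes were 0.79 (SE 0.08, adjusted p 4.32e-05) and 0.37 (SE 0.08, adjusted p 0.0216).

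Col3a1, the single chain gene of type III collagen, read 7668, 9534 and 7046 in WT saline, 18662, 15519 and 13904 in WT ovalbumin, 7312, 8407 and 9003 in Has2+/- saline and 14703, 13904 and 11964 in Has2+/- ovalbumin. It rose by 0.99 (SE 0.14, adjusted p 0.00168) in WT and by 0.71 (SE 0.14, adjusted p 0.0305) in Has2+/-, with all ovalbumin libraries above all saline libraries. Without the 5 libraries high in squamous genes the averages over both genotypes were 0.75 for Col1a1, 0.51 for Col1a2 and 0.71 for Col3a1, of which Col1a1 and Col3a1 kept an adjusted p under 0.05.

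The chains of type V collagen, which nucleates and limits fibrils, did not move by the same amount. Col5a2 stood at 1218, 1392 and 1061 in WT saline and 2371, 2259.7 and 2155 in WT ovalbumin, with 1181, 1221 and 1265 in Has2+/- saline and 1972, 1844 and 1465 in Has2+/- ovalbumin. It rose by 0.89 (SE 0.11, adjusted p 0.000325) and by 0.51 (SE 0.11, adjusted p 0.0245), with no overlap of ovalbumin and saline. Col5a1 stood at 1512, 1783 and 1423 in WT saline, 2069, 2442 and 2186 in WT ovalbumin, 1500.5, 1505 and 1610.1 in Has2+/- saline and 1806, 1657 and 1583 in Has2+/- ovalbumin. It rose in WT by 0.51 (SE 0.08, adjusted p 0.00113), whereas in Has2+/- the groups overlapped and the difference was 0.13 (95% interval -0.05 to 0.30, adjusted p 0.431). Without the 5 libraries high in squamous genes the WT value of Col5a1 was 0.33. Col5a3, a minor type V chain gene, lay between 171 and 251 units in all 12 libraries with no call.

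Among the other fibrillar members, Col27a1 lay between 319.5 and 458 units in all libraries, with changes of -0.11 and -0.03. Col24a1 read 9.08, 12.4 and 8.58 in WT saline and 21.8, 20.9 and 14.6 in WT ovalbumin, without overlap, but missed the threshold (0.86, SE 0.32, adjusted p 0.077). Col11a1 and Col11a2, minor fibril chains known best from cartilage, stayed under 11 and under 55 units and were not called.

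**Figure D3:**
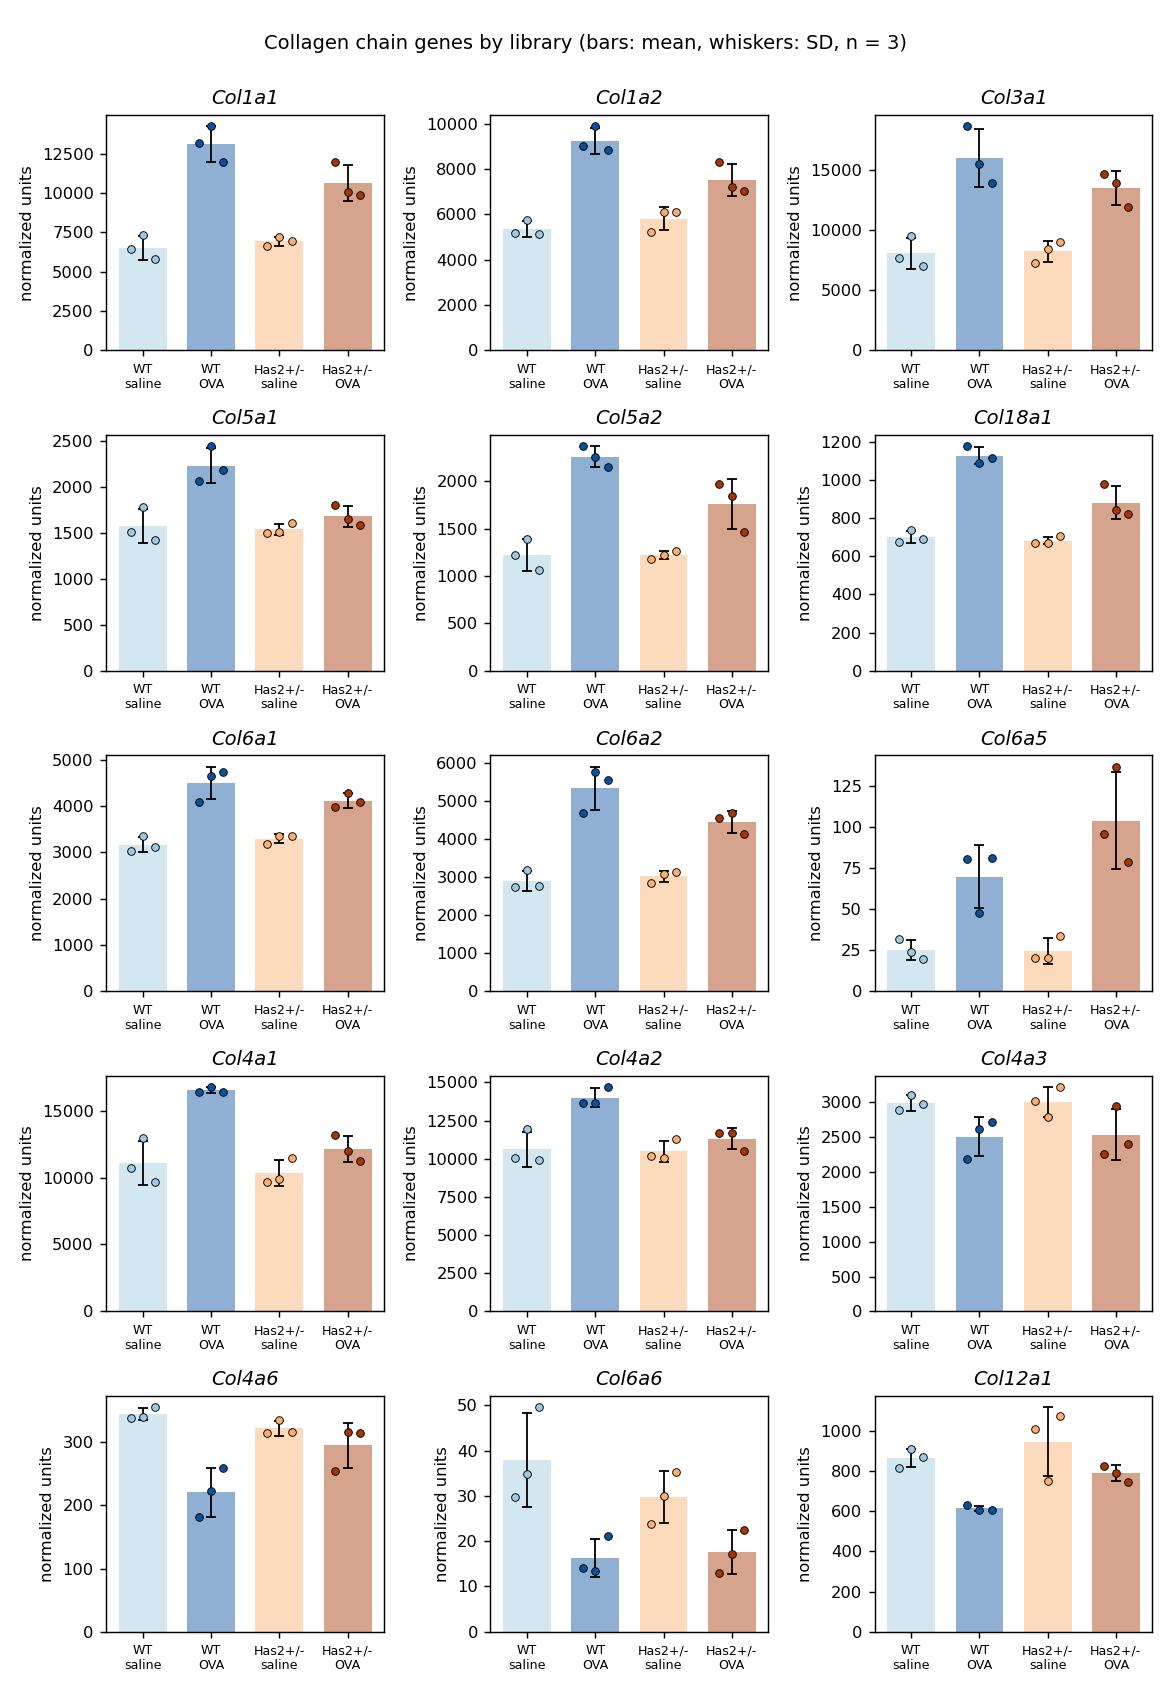
Normalized units of 15 collagen chain genes in each of the 12 libraries (points), with the mean (bar) and SD (whisker) of 3 libraries per group. For Col1a1, Col1a2, Col3a1, Col5a2, Col18a1, Col6a1, Col6a2 and Col6a5 the ovalbumin points lie above the saline points in both genotypes, and Col6a6 shows the opposite.

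The 6 chains of type IV collagen split. Col4a1 and Col4a2, which share one trimer, rose in WT, Col4a6 fell in WT, and Col4a3 fell when both genotypes were averaged. Col4a1 was at 10713, 12919.8 and 9701 in WT saline and 16372, 16757 and 16372 in WT ovalbumin, a change of 0.58 (SE 0.09, adjusted p 0.00137) without overlap. In Has2+/- it was at 9701, 9894 and 11469 with saline and 13138, 11964 and 11265 with ovalbumin, where the groups overlapped (0.23, 95% interval 0.03 to 0.43, adjusted p 0.199). Col4a2 was at 10042, 11964 and 9894 in WT saline and 13669, 13669 and 14703 in WT ovalbumin, and at 10150.5, 10042 and 11265 against 11719, 11719 and 10506 in Has2+/-. Its changes were 0.40 (SE 0.08, adjusted p 0.00227) and 0.11 (95% interval -0.05 to 0.27, adjusted p 0.450).

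For both genes the highest saline library of its genotype was library 5 or 12, the saline libraries low in squamous genes. Without the 5 libraries high in those genes, which leaves 1 saline library per genotype, the WT changes were 0.36 for Col4a1 and 0.19 for Col4a2, with adjusted p-values of 0.217 and 0.437. With the log2 squamous sum as a covariate they were 0.50 and 0.38, and both stayed under the threshold.

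Col4a3 read 2886, 3104 and 2967 in WT saline, 2186, 2613 and 2715 in WT ovalbumin, 3009.8, 2782 and 3212 in Has2+/- saline and 2257, 2947 and 2398 in Has2+/- ovalbumin. The difference was -0.26 in WT and -0.25 in Has2+/-, neither of them called, and the average of both was called at -0.25 (SE 0.07, adjusted p 0.0171). That call was lost without the trend and robust options (adjusted p 0.0666), with the squamous covariate (-0.25, adjusted p 0.120) and without the 5 libraries high in squamous genes (-0.36, adjusted p 0.179). Its head-to-head neighbour Col4a4 read 2655, 2672 and 2559.5 in WT saline, 1902, 2536 and 2375 in WT ovalbumin, 2557, 2464 and 2631 in Has2+/- saline and 1919, 2715 and 2238 in Has2+/- ovalbumin. Its average of -0.20 (SE 0.08, adjusted p 0.119) was not called. In both genotypes the lowest ovalbumin library of Col4a3 was also that of Col4a4, namely libraries 1 and 7. This is not particular to the pair. Libraries 1 and 7 were also the lowest ovalbumin libraries for Col4a5, Col4a6 and Col13a1, and for the summed markers of fibroblasts and of alveolar type 1 cells.

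Col4a5, the third chain of that trimer, read 1151, 1303 and 1229.5 in WT saline, 865, 1166 and 1069 in WT ovalbumin, 1239, 1305 and 1334 in Has2+/- saline and 969.7, 1219 and 1253 in Has2+/- ovalbumin. Its average difference was -0.22 (SE 0.08, adjusted p 0.0576). Col4a6, which lies head to head with it on the X chromosome, read 338, 340.4 and 355 in WT saline and 182, 222 and 259 in WT ovalbumin, and fell by 0.65 (SE 0.11, adjusted p 0.00165). In Has2+/- it read 314, 335 and 316 with saline and 254, 316 and 315 with ovalbumin, and the difference was -0.13 (95% interval -0.38 to 0.11, adjusted p 0.569).

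Of the 6 type VI members, 4 rose and 1 fell in WT, and 3 rose in Has2+/-. Col6a1 read 3033, 3360.1 and 3109 in WT saline, 4095, 4654 and 4745 in WT ovalbumin, 3176, 3360.1 and 3353 in Has2+/- saline and 3969, 4283 and 4095 in Has2+/- ovalbumin. It rose by 0.50 (SE 0.07, adjusted p 0.000282) and by 0.32 (SE 0.07, adjusted p 0.0187). The neighbouring gene Col6a2 read 2742, 3192 and 2767 in WT saline, 4682, 5762 and 5554 in WT ovalbumin, 2855, 3087 and 3123 in Has2+/- saline and 4544, 4682 and 4125 in Has2+/- ovalbumin. It rose by 0.88 (SE 0.08, adjusted p 2.34e-05) and by 0.56 (SE 0.08, adjusted p 0.00408). In both genes every ovalbumin library exceeded every saline library.

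Col6a3, the long chain of the classical type VI trimer, had the smallest of the called WT changes. It read 3046, 3708 and 2985 in WT saline, 3480.2, 4186 and 4125 in WT ovalbumin, 3399, 3156 and 3506 in Has2+/- saline and 4177, 4177 and 3735 in Has2+/- ovalbumin. The WT groups overlapped, because library 5 was above library 1, and the WT call at 0.28 (SE 0.09, adjusted p 0.0425) was lost under 14 of 23 other settings. Those include leaving out any single one of libraries 2, 3, 4, 6, 7, 8, 10 and 12. The value without the 5 libraries high in squamous genes was 0.04.

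The remaining type VI genes are alternative chains at low levels, in a row on chromosome 9, and they moved apart. Col6a5 read 31.5, 23.8 and 19.6 in WT saline, 80.8, 47.4 and 81.5 in WT ovalbumin, 20.0, 20.0 and 33.8 in Has2+/- saline and 96, 137 and 79.0 in Has2+/- ovalbumin. It showed the largest change among the called members, 1.43 (SE 0.28, adjusted p 0.00304) in WT and 2.04 (SE 0.28, adjusted p 0.00244) in Has2+/-. Its neighbour Col6a6 read 29.7, 34.8 and 49.6 in WT saline, 14.1, 13.5 and 21.1 in WT ovalbumin, 23.8, 30.1 and 35.2 in Has2+/- saline and 13, 17.2 and 22.6 in Has2+/- ovalbumin. It fell by 1.17 (SE 0.28, adjusted p 0.0103) in WT, and in Has2+/- the difference of -0.74 was not called (adjusted p 0.166). No saline library of Col6a6 was as low as any ovalbumin library. The WT call of Col6a6 was lost without library 6 (-0.97, adjusted p 0.0627). Col6a4 stayed between 5.17 and 13 units and was not called.

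Of the multiplexins, collagens of the basement membrane zone, Col18a1, the gene of the precursor of endostatin, rose in both genotypes. It read 676, 738 and 693 in WT saline, 1176, 1089.8 and 1117 in WT ovalbumin, 672, 669 and 705 in Has2+/- saline and 978, 842 and 824 in Has2+/- ovalbumin. The changes were 0.68 (SE 0.07, adjusted p 7.4e-05) and 0.37 (SE 0.07, adjusted p 0.0158), with no overlap. Its relative Col15a1 read 355, 457 and 441 against 578, 477 and 471 in WT, without overlap, and 396, 333 and 416 against 492, 365 and 424 in Has2+/-. It was not called (0.29, SE 0.13, adjusted p 0.152 in WT).

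Among the FACIT members, Col12a1 fell in WT and Col22a1 rose. Col12a1, whose product coats type I fibrils, read 816, 908 and 868 in WT saline, 629, 607 and 607 in WT ovalbumin, 1009.6, 752 and 1076 in Has2+/- saline and 826, 792 and 747 in Has2+/- ovalbumin. It fell by 0.49 (SE 0.10, adjusted p 0.00488) in WT while the type I genes rose. The difference in Has2+/- was -0.25 (95% interval -0.46 to -0.03, adjusted p 0.196), where the saline library 11 lay within the ovalbumin range. Col22a1 was far lower, at 8.92, 5.17 and 3.17 against 16, 16 and 11.2 in WT and 3.58, 4.25 and 5.17 against 11.2, 10 and 11.1 in Has2+/-. Its WT change of 1.27 (SE 0.37, adjusted p 0.0285) was lost without any one of libraries 1, 2, 5 and 6, and it shrank to 0.64 with a pseudocount of 10.

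Col14a1 and Col16a1, also abundant FACIT genes, were not called: Col14a1 lay between 673 and 976 units and Col16a1 between 451 and 624 in all libraries. Col9a3, Col19a1 and Col20a1 were at most 13, 6.92 and 55.6 units and not called.

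None of the 4 transmembrane members was called in either genotype alone. Col23a1 read 694, 790.4 and 805 in WT saline, 658, 681 and 767 in WT ovalbumin, 703, 729.7 and 715 in Has2+/- saline and 581, 642 and 515 in Has2+/- ovalbumin. It fell on average over both genotypes by 0.22 (SE 0.06, adjusted p 0.0186), a call lost without library 6 (-0.19, adjusted p 0.0553). It was also lost without the trend and robust options (adjusted p 0.0671), with the squamous covariate (-0.15, adjusted p 0.252) and without the 5 libraries high in squamous genes (-0.27, adjusted p 0.198). Col13a1 lay between 506 and 778 units, with an average of -0.21 (SE 0.08, adjusted p 0.0609). Col17a1, a hemidesmosome component of basal epithelial cells, was at 333, 300.0, 264, 315 and 289 units in libraries 3, 4, 6, 10 and 11, the 5 libraries high in squamous and basal epithelium genes. It was at 135 in library 5 and at 58.8 to 104 in the other 6 libraries. Its treatment differences of -0.89 (SE 0.69) in WT and -1.41 (SE 0.69) in Has2+/- were not called, and the part of the squamous level in them was not tested.

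Col7a1, the anchoring fibril gene, lay between 154 and 235 units without a call. The network genes Col8a1 and Col8a2 lay between 104 and 174 and between 127 and 188 units. All 6 ovalbumin libraries of Col8a2 were under all 6 saline libraries, with an average of -0.21 (SE 0.08, adjusted p 0.0652). Col25a1, Col26a1 and Col28a1 reached at most 7.42, 13.5 and 30.0 units and were not called.

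Averaged over both genotypes, 13 members were higher and 5 lower, where 11.4% of all genes were called higher and 11% lower. The higher ones were the 13 of WT, and the lower ones were Col6a6, Col4a6, Col12a1, Col4a3 and Col23a1. The lower ones numbered 8 without library 2 or without library 3. Counted by values alone, all 6 ovalbumin libraries exceeded all 6 saline libraries in 9 tested members, against 5.12% of all genes, and lay under them in 2 members, Col6a6 and Col8a2, against 3.42%.

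Partner chains were next compared within each library, which asks whether chains of one molecule or one fibril moved by the same amount. The difference of the log2 ratio between ovalbumin and saline was tested by a two-sided exact permutation of treatment within genotype (400 arrangements, smallest possible p 0.005), adjusted over 8 pairs. Col1a1 gained on Col1a2: the ratio per kb was 1.12, 1.14 and 1.02 in WT saline, 1.32, 1.30 and 1.22 in WT ovalbumin, 1.15, 1.06 and 1.03 in Has2+/- saline and 1.30, 1.26 and 1.27 in Has2+/- ovalbumin. The log2 difference was 0.23 (exact permutation p 0.005, adjusted p 0.01), and all ovalbumin libraries were above all saline libraries. Both products join in the type I trimer, and an RNA ratio per kb does not measure chains.

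Col5a1 lost against Col5a2: the ratio was 0.978, 1.01 and 1.06 in WT saline and 0.688, 0.852 and 0.799 in WT ovalbumin. In Has2+/- it was 1.00, 0.972 and 1.00 with saline and 0.722, 0.708 and 0.852 with ovalbumin. The log2 difference was -0.39 in each genotype (exact permutation p 0.005, adjusted p 0.01 over both). Col6a1 lost against Col6a2, from 1.01 to 1.08 in WT saline and 1.03 to 1.07 in Has2+/- saline to 0.778 to 0.842 and 0.841 to 0.956 with ovalbumin. Its log2 difference was -0.30 (exact permutation p 0.005, adjusted p 0.01). Col4a1 gained slightly on Col4a2, by 0.15 (exact permutation p 0.005, adjusted p 0.01), with ratios of 0.956 to 1.05 and 0.932 to 0.993 in saline and 1.09 to 1.20 and 0.995 to 1.09 in ovalbumin.

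The ratio of Col3a1 to Col1a1 was 1.32 ± 0.063 (SD, n = 3) in WT saline and 1.30 ± 0.18 in WT ovalbumin, and no difference was detected (0.04, exact permutation p 0.59, adjusted p 0.59). For the head-to-head pair Col4a3 and Col4a4 it was 1.34 ± 0.050 and 1.31 ± 0.079 in WT, with a log2 difference of -0.06 (exact permutation p 0.16, adjusted p 0.183). Col6a3 against Col6a1 (-0.14) and Col8a1 against Col8a2 (0.32) both had an adjusted p of 0.06. On this quantile scale neighbouring ranks lie a median of 1.97% apart among genes at 10000 to 20000 units, so the smallest ratios of the highest genes are coarse.

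**Figure D4:**
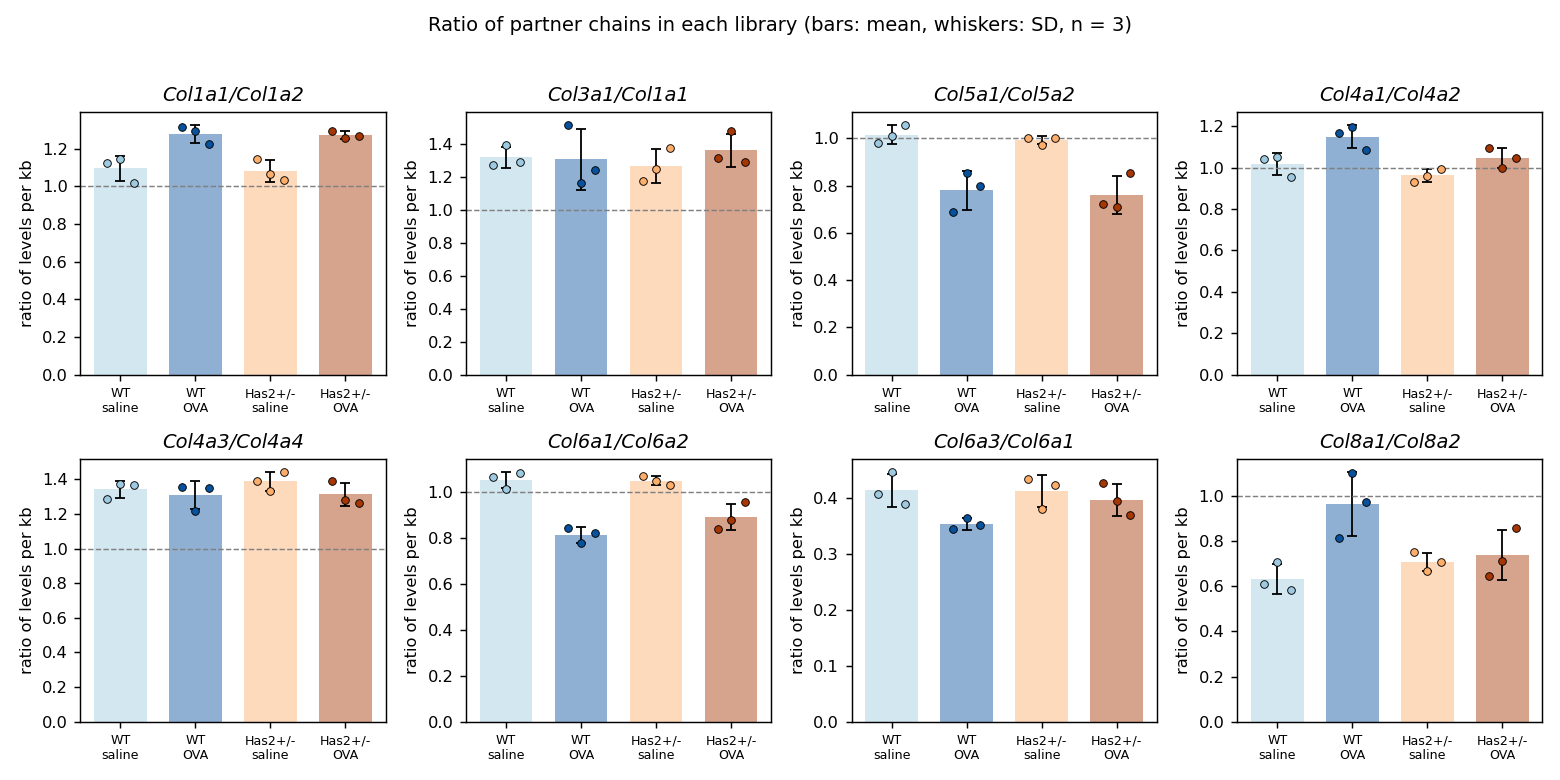
Ratio of the levels per kb of partner chain genes in each library (points), with mean (bar) and SD (whisker) of 3 libraries per group; the dashed line marks equal levels. Col1a1/Col1a2 is higher, and Col5a1/Col5a2 and Col6a1/Col6a2 are lower, in all ovalbumin libraries than in all saline libraries.

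Under saline no collagen gene was called between the libraries labelled Has2+/- and WT. With 3 libraries a group and almost no calls over all genes, this does not show equal levels. By limma 0 members were higher and 0 lower, where 0.0105% and 0% of all genes were called, and at an unadjusted p under 0.05 it gave 0 members against 5.62% of all genes. The authors' deposited table also gives 0 members, with 4 of all genes higher and 3 lower in Has2+/-. The median difference of the members was -0.01.

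After ovalbumin, 3 members were lower and 0 higher in Has2+/- than in WT, where 0.363% and 0.589% of all genes were called lower and higher. They were Col18a1 (-0.36, SE 0.07, adjusted p 0.0293), Col5a1 (-0.41, SE 0.08, adjusted p 0.0331) and Col4a1 (-0.45, SE 0.09, adjusted p 0.0425). For each of them the values given above show all 3 Has2+/- ovalbumin libraries under all 3 WT ovalbumin libraries. This does not set them apart, because the same holds for Col1a2, Col4a2 and Col5a2, among others, which were not called. Col12a1 separated in the opposite direction. The share of all genes that separate in this comparison was not computed. Before adjustment 14 members were lower and 2 higher at p under 0.05, against 6.43% and 9.62% of all genes, and the median of the members was -0.20 against 0.01. The 2 higher were Col12a1 (0.36) and Col4a6 (0.42), which are 2 of the 3 members that fell with ovalbumin in WT. Both comparisons use the same 3 WT ovalbumin libraries, so low values there act on both, and the match is not independent.

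These 3 calls hung on single libraries and settings. Leaving out any one of libraries 2, 3, 8 and 9 gave 0 members lower, and leaving out any one of libraries 1, 4, 10 and 11 gave 1. Without library 7, the Has2+/- ovalbumin library with the highest values of Col1a1, Col1a2, Col3a1 and Col5a2, 7 members were lower. The sign and approximate size stayed: over 23 settings Col18a1 ranged from -0.44 to -0.31, Col5a1 from -0.46 to -0.34 and Col4a1 from -0.51 to -0.40.

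The test of whether the ovalbumin change itself differed between the genotypes called 0 members in either direction, where 0.00526% and 0.0105% of all genes were. Before adjustment limma gave, at p under 0.05, 9 members with a smaller or more negative change in Has2+/- and 1, Col4a6, with the opposite, against 3.45% and 5.1% of all genes. The median difference of the members was -0.15 against 0.02. The contrasts with the smallest p-values were Col1a2 (-0.41, SE 0.11, unadjusted p 0.00187, adjusted p 0.387), Col4a6 (0.52, SE 0.16, adjusted p 0.439), Col5a1 (-0.38, SE 0.12, adjusted p 0.439), Col18a1 (-0.32, SE 0.10, adjusted p 0.440) and Col1a1 (-0.40, SE 0.13, adjusted p 0.461). The larger WT changes of the fibrillar genes were therefore not shown to differ from those in Has2+/- after adjustment.

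The genes that make, cut, bind and break down collagen were described with the chains. Their counts stand against the 8.65% of all genes called higher and 8.05% lower in WT, and the 11.4% and 11% on average over both genotypes. In Has2+/- the shares were only 1.85% and 0.952%. Of 21 genes for hydroxylation, folding and export of procollagen in the cell, 10 rose and 1 fell in WT. In Has2+/- 0 were called, which lies near the shares there. The test of whether the ovalbumin change differed between the genotypes called 0 of them. Averaged over both genotypes, P4ha3, a catalytic subunit of prolyl 4-hydroxylase, rose by 1.21 (SE 0.25), Serpinh1, the collagen chaperone, by 0.83 (SE 0.13), Fkbp14, a prolyl isomerase, by 0.57 (SE 0.11) and P4hb, the other subunit of prolyl 4-hydroxylase, by 0.48 (SE 0.07). Serpinh1 read 2516, 2750.0 and 2093 in WT saline, 4977, 4912 and 4702 in WT ovalbumin, 2259.7, 2227 and 2904 in Has2+/- saline and 5253, 3480.3 and 3241 in Has2+/- ovalbumin. All of its ovalbumin libraries were above all saline libraries.

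Of 9 genes of procollagen cleavage, Adamts3, a procollagen N-proteinase, rose (0.63, SE 0.16) and Pcolce2, an enhancer of C-proteinase, fell (-0.76, SE 0.14) on average. With ovalbumin against saline in Has2+/- alone, 0 of the 9 were called. Bmp1, the C-proteinase itself, was lower in Has2+/- than in WT after ovalbumin (-0.31, adjusted p 0.0475). This call lies near the threshold, and whether it holds under other settings is not shown here. Over all genes this comparison gave 112 higher and 69 lower, but 5 and 5 without the trend and robust options. Of 7 crosslinking genes, 3 rose and 1 fell in WT and 5 rose and 1 fell on average. In Has2+/- 0 were called, again near the shares there. The largest average rises were those of Loxl4 (0.49, SE 0.12), Lox (0.49, SE 0.11), Tgm2 (0.48, SE 0.08) and Loxl3 (0.36, SE 0.09), which encode lysyl oxidases and a transglutaminase. The average of Lox joins a change of 0.85 (SE 0.16, adjusted p 0.00524) in WT and a difference of 0.13 (SE 0.16, adjusted p 0.708) in Has2+/-, where the groups overlapped.

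Of 8 tested genes of collagen breakdown, 3 rose in WT and 5 on average, with 0 lower. In Has2+/- alone 0 were called, which lies near the shares there. The changes that follow are averages over both genotypes. Mmp13, a collagenase, rose by 1.86 (SE 0.41) from at most 3.08 units in saline, Ctsk, the protease cathepsin K, by 1.17 (SE 0.20), Mmp14 by 0.56 (SE 0.06) and Mmp2 by 0.33 (SE 0.09). Of 12 collagen receptors, 1 rose and 2 fell on average: Lair1, an inhibitory receptor of leukocytes, rose by 1.20 (SE 0.14), and Itga11, an integrin chain of fibroblasts, and Gp6, the collagen receptor of platelets, fell by 0.64 (SE 0.17) and by 1.32 (SE 0.41). These receptor counts lie near the shares over all genes. In Has2+/- alone, 1 receptor rose and 0 fell.

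Of 15 non-collagen genes of basement membranes, 4 fell in WT, 2 fell in Has2+/- and 3 fell on average. Nid2, a linker of laminin and type IV collagen, fell by 0.60 (SE 0.08), and the laminin chain genes Lama3 and Lamb2 fell by 0.33 (SE 0.07) and by 0.30 (SE 0.05).

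**Figure D5:**
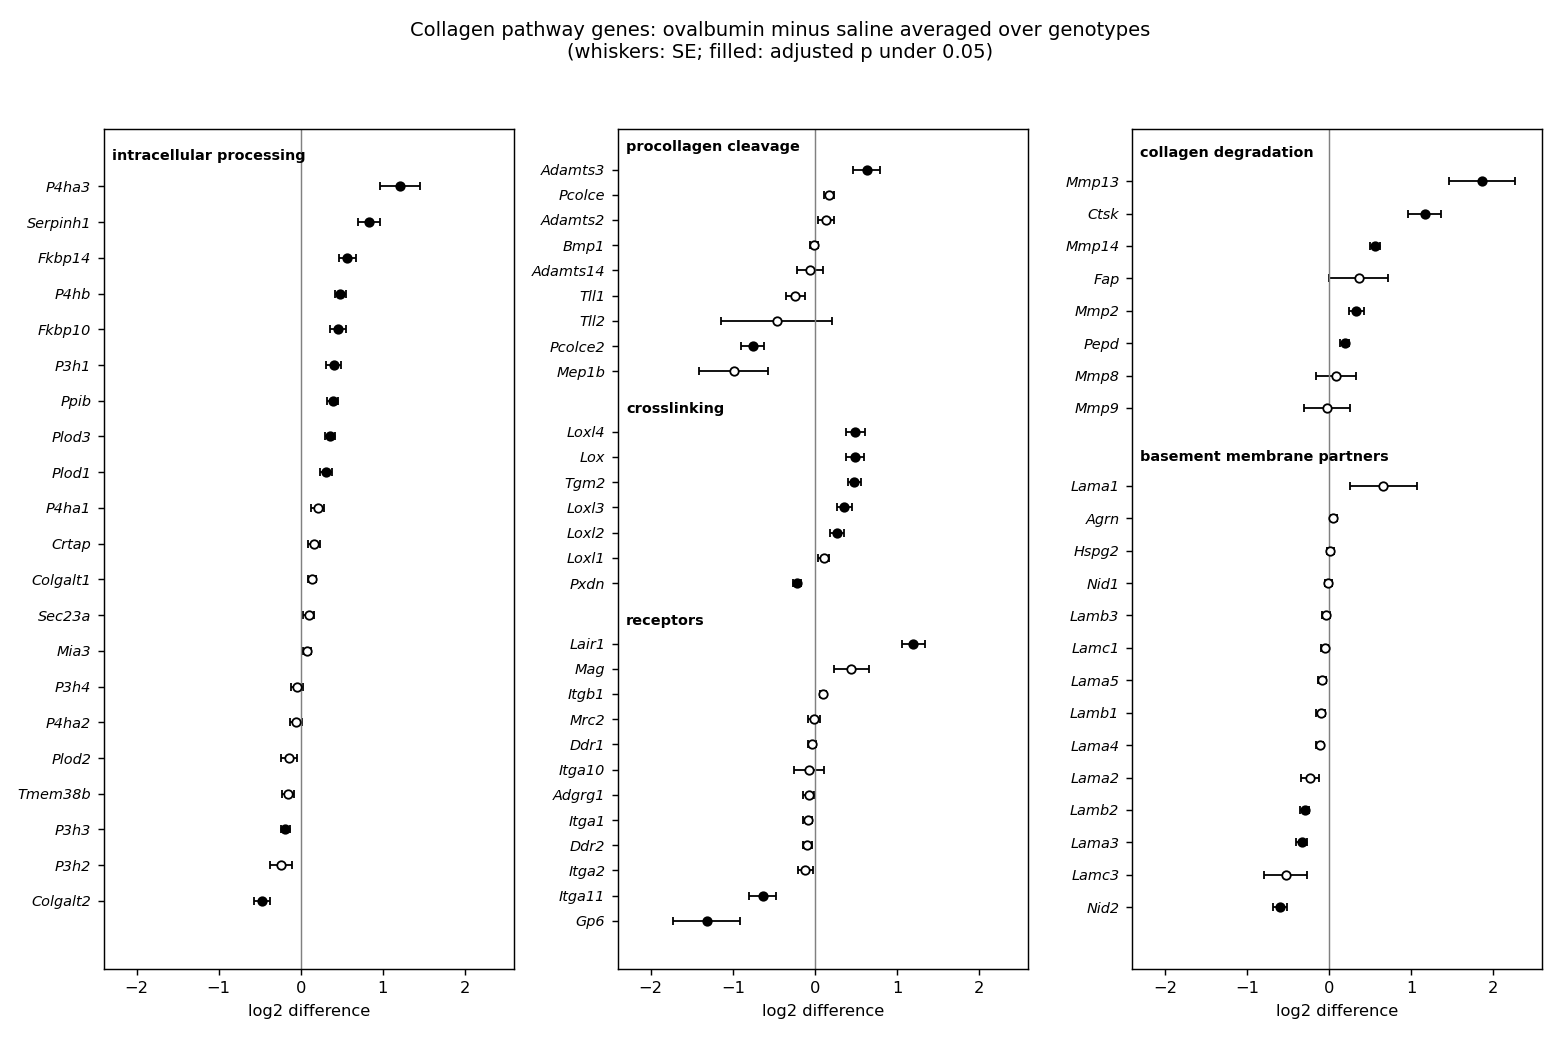
Ovalbumin minus saline log2 difference averaged over both genotypes, with SE, for genes of 6 collagen-related lists; filled points have an adjusted p under 0.05. Most called genes of processing, crosslinking and breakdown lie right of 0, and the called basement membrane partners shown lie left.

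Most markers of fibroblasts, the main makers of fibrillar collagen, fell while the fibrillar chain genes rose. The marker counts are averages over both genotypes, where 11.4% of all genes were called higher and 11% lower. Of 9 fibroblast markers, 8 fell and 1, Mfap4, rose. In WT alone 7 fell and 1 rose, and in Has2+/- 0 were called. Their summed level was 19586 to 20865 units in WT saline, 11127 to 14564 in WT ovalbumin, 19563 to 20090.1 in Has2+/- saline and 13638 to 17531 in Has2+/- ovalbumin. Of 6 pericyte markers, 4 fell and 0 rose. Of 7 markers of myofibroblasts and smooth muscle, Acta2 (0.37, SE 0.08) and Tagln (0.27, SE 0.06) rose and Lmod1 (-0.43, SE 0.13) fell. In WT alone 0 of these 7 were called, and in Has2+/- alone 2 were called higher and 0 lower. Of 6 endothelial markers, 3 fell. Among 7 alveolar type 1 markers, 3 fell and 1 rose, among 5 alveolar type 2 markers 2 rose, and among 5 mesothelial markers 2 fell. Of 6 macrophage markers 4 rose, with sums of 18219.8 to 20158 in WT saline and 19689 to 23954 in WT ovalbumin, which overlapped. In Has2+/- the macrophage sums were 21056 to 22689 with saline, above all WT saline libraries, and 22455 to 26947 with ovalbumin, and they overlapped too. Of 5 genes of dividing cells 4 rose. The part of these cell types in the collagen values was not tested.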

How the data were processed

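The deposited table holds, per the file headers, normalized expression values of 12 lung libraries, and the submitters' processing notes name the mm10 build. For the aligner and the counter the answer is: not given in the sources used here. From the values, the authors quantile-normalized gene counts: the sorted columns are identical (largest difference 0), so this signal unit has no known depth. The score columns, per the file headers, are the authors' signed fold changes from their EDGE test, and the p-value columns are its FDR-corrected p-values; both are quoted only as the authors' deposited table.

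limma 3.58.1 in R 4.3.3 was run on log2(value + 1) for genes whose mean reached 1 in some group, with 1 mean per group, trend and robust options and 8 residual degrees of freedom. Columns were tied to groups by their codes and to no single sample. The members, gene lists, naming rule and tests were chosen with earlier results of these data known. Named genes are the members called in any comparison or averaging at least 100 units, and up to 4 called genes per list with the largest average change. Lengths are those of the GENCODE M21 transcript with the longest coding sequence, promoters are from RefSeq, and ratios were tested in Python 3.11.15. Fits were tested on simulated data. The result of 1 gene among the basement membrane partners is not reported here. Alternatives covered the pseudocount (0.1, 10), the filter (none, 10), empirical Bayes options, median-ratio rescaling, array weights, the 6 libraries compared alone, each library left out, and libraries 3 and 12 left out. After seeing the data, leaving out the 5 libraries with squamous sums of 10000 or more and a squamous covariate were added.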

Additional observations from a re-analysis of the deposited data

How the results depend on the processing

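The genes called higher in WT with ovalbumin numbered 13, and 11 to 13 with any 1 library left out; the lower ones numbered 3, and 3 to 5, with 5 without library 2. In Has2+/- the higher ones numbered 8, with 1 without the trend and robust options, 3 with the squamous covariate and 3 to 8 with 1 library left out (4 without library 7, 5 without library 8, 3 without library 10 or 11). The lower ones numbered 0, and 0 to 1 with 1 library left out (Col23a1 without library 1, 3 or 8, Col12a1 without library 11), and 1, Col17a1, without libraries 3 and 12, a choice that puts every ovalbumin library left under every saline library left in squamous sum. Averaged over genotypes the higher ones numbered 13 (13 to 14 with 1 library left out) and the lower ones 5 (4 to 8, with 8 without library 2 or 3, and 2 with the squamous covariate). With that covariate the higher calls of Col22a1, Col4a2 and Col6a3 were lost as well. Over all genes 850 were then called higher and 820 lower on average, against 2167 and 2094 in the main fit. The counts of the pathway and marker lists are given for the main fit only.

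Without the 5 libraries high in squamous genes, which leaves 1 saline library per genotype and assumes it varies like the other groups, 0 were higher and 0 lower in WT, 0 higher in Has2+/-, and 3 higher (Col1a1, Col3a1, Col6a2) and 1 lower (Col12a1) on average; over all genes 38 were then higher and 61 lower in WT. Has2+/- against WT after ovalbumin gave 3 lower, with 1 without the filter, 0 without trend and robust options, 0 with the 6 libraries alone, 0 without libraries 3 and 12, 0 without the 5 libraries and 0 to 7 with 1 left out. It gave 0 higher, and 0 to 1 with 1 left out (Col4a6 without library 3 or 7, Col12a1 without library 11). Under saline and for the interaction, each alternative run gave 0 members.

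With 1 library left out, Col1a1/Col1a2 ranged from 0.21 to 0.25, Col3a1/Col1a1 from -0.015 (without library 1) to 0.080, Col5a1/Col5a2 from -0.43 to -0.34, Col4a1/Col4a2 from 0.13 to 0.17, Col4a3/Col4a4 from -0.08 to -0.03, Col6a1/Col6a2 from -0.33 to -0.28, Col6a3/Col6a1 from -0.17 to -0.11 and Col8a1/Col8a2 from 0.27 to 0.38. The adjusted exact permutation p of Col6a3/Col6a1 passed the threshold without library 7 or 11 (0.024 each), and that of Col8a1/Col8a2 without library 7 (0.0267). The causes were not tested. No paired analysis was possible because the columns carry a running library number that matches no replicate number of the titles. Depth is unknown, which limits what can be said of members under 10 units.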

Other observations

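The authors' deposited table, with the second group read as set against the first, lists 11 members with ovalbumin higher and 3 lower (Col12a1, Col4a6 and Col6a6) in WT at an FDR under 0.05. Of all 49585 genes it lists 1115 as higher and 597 as lower there. In Has2+/-, the authors' deposited table lists as higher with ovalbumin 5 members: Col1a1, Col3a1, Col5a2, Col6a2 and Col6a5. Of all genes, 277 are listed as higher there. After ovalbumin, the authors' deposited table lists 46 of all genes as lower and 24 as higher in Has2+/- than in WT. The members among them are 2 lower ones, Col4a1 (fold -1.41) and Col4a2 (fold -1.37). Of these, Col4a2 missed the threshold of limma (adjusted p 0.0602), and Col5a1 and Col18a1, called by limma, were not under that FDR.

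Col4a1 and Col4a3 belong to different type IV trimers. The ratio of their RNA levels per kb, a pair picked after its values were seen and not tested, does not measure the chains or the networks. It was 4.80, 5.38 and 4.23 in WT saline and 9.69, 8.29 and 7.80 in WT ovalbumin. In Has2+/- it was 4.17, 4.60 and 4.62 with saline and 7.53, 5.25 and 6.07 with ovalbumin. Ovalbumin and saline libraries did not overlap within either genotype, and the lowest Has2+/- ovalbumin library, 8, lay under the highest WT saline library, 5.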
